A study of Capsicum annuum with 78 samples.

Results

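The genes described here are 150 of the 35884 in a count table of pepper leaves, selected on measured values: their RNA was lower after 72 h of cold and close to the mock level during the first hours of cold. The choice used CPM, the count of a gene scaled to the total of its library, and, for each of the groups of 3 libraries, the mean of log2(CPM + 1). A gene was taken when its mean CPM in mock leaves was between 2 and 1000, its mock group means spanned less than 1 on that scale, and cold minus mock at 72 h was -1.2 or lower. Cold minus mock also had to stay within 0.5 of 0 at 3 h and at 6 h, and heat minus mock at 72 h had to be above -0.5. Of 195 genes that met these limits, the 150 with the lowest difference at 72 h of cold were kept. They are called the late-cold genes here. The rule set no limit at 12 h or 24 h of cold, before 72 h of heat, or for mannitol or NaCl at any time, so those comparisons are the ones that were tested.

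All plants were Capsicum annuum of the cultivar CM334, 6 weeks old. Leaves came from plants at 10 °C (cold), plants watered with 400 mM NaCl, plants watered with 400 mM mannitol, and plants at 40 °C (heat), and each stress had 5 sampling times, 3, 6, 12, 24 h and finally 72 h. Mock plants, kept at the growth temperature of 24 °C, had the same times with 0 h in addition. Each of the 26 groups held 3 biological replicates, each pooled from 4 plants, so the spread between replicates is between pools and not between single plants.

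Pepper is a plant of warm climates and its leaves are sensitive to chilling. In plants, RNA levels shift within hours of a temperature drop, through calcium signals and transcription factors that act early, and a later phase follows over days as membranes, photosynthesis and growth adjust to the lower temperature. Mannitol in the root medium withdraws water from the roots, while NaCl withdraws water and also brings in sodium and chloride ions. In whole leaves, fewer cells of a type and less RNA per cell cannot be told apart.

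The 78 libraries held between 4310398 and 7667094 counts, with a median of 5928347. In 76 of them the most similar library was of the same group, and the exceptions, both of mannitol, were the replicate 3 libraries of 6 h and 12 h, which stood nearest to NaCl libraries of the same time. Replicates of a group differed by more than sampling noise, with a chi-square of at least 1.96 per degree of freedom. The gene identifiers are those of the CM334 gene models, printed from the scaffold name on, and found 0 matches among the 48341 entries of the name table at hand. The late-cold genes therefore carry no names or roles here, the leaf tissue was not checked against marker genes, and no sequences are shown. They lay on 134 scaffolds, with at most 3 on any of them. Only 4 of them formed pairs with consecutive numbers, scaffold792.11 with scaffold792.12 and scaffold39.23 with scaffold39.24.

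As a share of all counts, the late-cold genes held 0.532 ± 0.048% of a library after 72 h of cold, against 1.85 ± 0.060% in mock leaves at 72 h (SD, n = 3 each). That pair is fixed by the rule, but the course before it is not. Along the cold treatment the share was 1.91 ± 0.035% at 3 h, 1.52 ± 0.15% at 6 h and 1.52 ± 0.11% at 12 h, and it stood at 1.08 ± 0.042% by 24 h. Mock leaves held between 1.59% and 1.94% at their 6 times, with the lowest value at 6 h and 1.85 ± 0.021% at 24 h. The libraries overlapped at 6 h. At 12 h the cold libraries held 1.42%, 1.496% and 1.63%, below the mock libraries, the lowest of which held 1.71%. At 24 h every cold library was again below every mock library. These shares rest on library totals. On that scale 47.9% of all tested genes had all cold CPM below all mock CPM at 12 h, and 24.6% at 24 h. In the fit described below, with TMM scaling, the median log2 fold change of the late-cold genes was -0.09 at 12 h. The lower share at 12 h is therefore not read as a fall of these genes.

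NaCl leaves reached a similar level at 24 h. Their share was between 1.49% and 1.72% during the first 12 h, then 1.06 ± 0.028% at 24 h and 1.52 ± 0.038% at 72 h. In mannitol leaves it was 1.59 ± 0.090% at 24 h and 1.45 ± 0.077% at 72 h, and in heat leaves it stayed between 1.55% and 1.95% over the 5 times. Without the 10 most abundant late-cold genes both stresses were still below mock, and the others summed to 6868 ± 297 CPM in cold and 7014 ± 205 CPM in NaCl at 24 h, against 11660 ± 150 CPM in mock leaves.

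**Figure D1:**
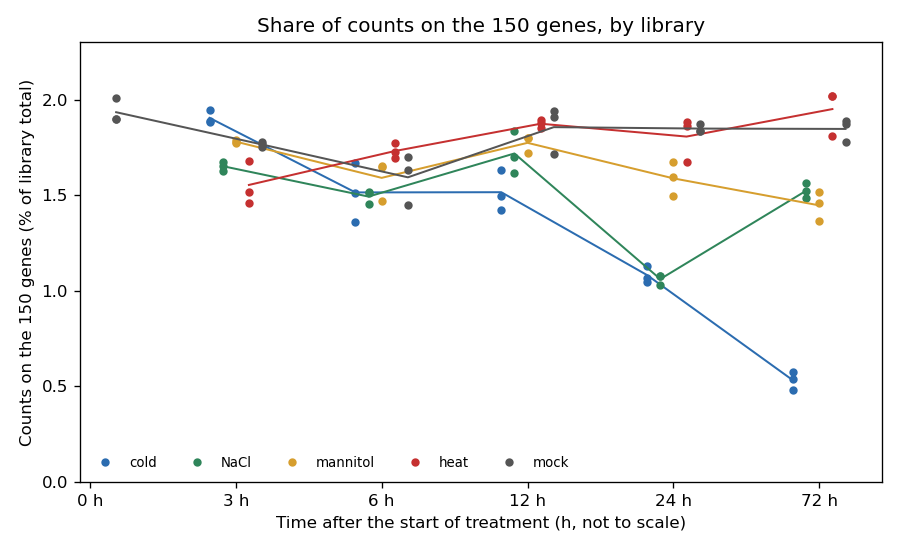
Share of each library's counts that fell on the 150 late-cold genes (y axis, % of library total) by time after the start of treatment (x axis, h, not to scale). Points are libraries and lines join the means of 3 libraries, and the NaCl line dips to 1.06% at 24 h and returns to 1.52% at 72 h while the cold line ends at 0.532%.

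The rule itself left the late-cold genes between -3.95 and -1.35 in cold minus mock at 72 h on the log2(CPM + 1) scale, with a median of -1.64. In 149 of the 150 every cold library at 72 h was below all 18 mock libraries, and in 97 it was below all 75 other libraries of the series. Shares of other genes were not computed for these 2 counts. Against the mock libraries of 72 h alone, all 150 were below, and so were 18.9% of the 10334 genes within the level and range limits. The rule chose on cold at 72 h, so nothing is read from these counts. The last gene inside the limit, scaffold575.103, had a difference of -1.3464 and the first gene outside, scaffold1518.3, had -1.3455, so the edge falls within a continuous range. The mean mock level had a median of 49.5 CPM and ran from 2.58 to 944 CPM. In the shallow end, 1 late-cold gene had 3 or fewer counts in every cold library at 72 h. In the fit described below, 19.0% of all tested genes were called lower and 16.2% higher in cold at 72 h, against 150 and 0 of the late-cold genes. Nothing is read from that count, since it restates the rule.

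The gene with the lowest value at 72 h, scaffold782.5, shows the course. Its cold libraries held 187, 193 and 187 CPM at 3 h, 148, 117 and 132 CPM at 6 h, and 140, 138 and 158 CPM at 12 h. They then held 63.6, 61.0 and 63.0 CPM at 24 h and 9.51, 10.5 and 10.8 CPM at 72 h, against 185, 193 and 173 CPM in mock libraries at 24 h and 195, 145 and 182 CPM at 72 h. From 24 h on the groups were far apart, and at 12 h the cold libraries were all above the mock libraries, which held 103, 112 and 119 CPM. The second lowest gene, scaffold1028.6, held 76.2, 84.6 and 89.2 CPM in cold at 24 h, against 216, 216 and 212 CPM in mock leaves. Both genes had thus moved more than the spread between replicates a full 2 days before the time that chose them.

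Differences were tested with edgeR's quasi-likelihood test in 1 fit of all 78 libraries over 19588 genes, with TMM scaling and Benjamini-Hochberg adjustment over all tested genes. A gene was called when its adjusted p was under 0.05 and its log2 fold change passed 1 in size. For counts at an unadjusted p under 0.05, shares of all tested genes were not computed. All 150 late-cold genes passed the filter on low counts, and 24 comparisons that the rule did not use were made. The mock libraries at 12 h and 24 h entered the rule through the limits on mock level and range only. Those at 72 h also entered through the limits on cold and heat, and mannitol and NaCl at 72 h were tested against them. The sets beside which the late-cold genes are described are all tested genes, and a steady set of 2852 genes that met the same mock, early-cold and heat limits but stayed within 0.5 of 0 in cold at 72 h. A further set of 150 genes came from the same rule with its signs at 72 h reversed.

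At 24 h of cold, 71 of the 150 late-cold genes were called lower than mock and 0 higher, against 10.7% of all tested genes lower and 13.1% higher. None of the 150 reached an unadjusted p under 0.05 upward, and DESeq2 called 0 higher as well. All 150 fold changes were below 0, against 48.8% of all tested genes, and 143 passed the adjusted p when the limit on fold change is left aside. For the 143 the share of all tested genes was not computed. The median log2 fold change was -0.95, with quartiles of -1.44 and -0.65 and extremes of -2.87 and -0.15. In the steady set 104 of 2852 genes (3.65%) were called lower, with a median of -0.17, and in the set from the reversed rule 0 were lower and 64 higher. A description of these genes as lowered at 72 h alone therefore goes against the data at 24 h.

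Library by library, all cold values at 24 h lay below all mock values in 139 late-cold genes (24.6% of all tested genes) and above them in 0 (37.8% of all tested genes). On the log2(CPM + 1) scale the median SD between replicates of a late-cold gene was 0.141 in cold and 0.0968 in mock leaves at 24 h, while the median difference was -0.81. The size at 24 h was a median of 44.9% of that at 72 h, which the rule had set, with quartiles of 32.5% and 65.8%.

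The smallest p at 24 h of cold belonged to scaffold1110.43. Its cold libraries held 6.04, 6.62 and 7.63 CPM at 24 h, against 35.1, 34.4 and 32.4 CPM in mock libraries, a log2 fold change of -2.44 ± 0.13 (SE, adjusted p = 2.48e-24). At 72 h of cold it held 6.11, 6.13 and 6.91 CPM, so the 24 h and 72 h cold libraries overlapped and its low level was already reached at 24 h. The next smallest p belonged to scaffold904.18, whose cold libraries held 258, 243 and 245 CPM at 24 h, against 934, 982 and 1005 CPM in mock libraries (log2 fold change -2.09 ± 0.13, adjusted p = 6.29e-21). In contrast to scaffold1110.43 it was lower still at 72 h, with 75.7, 98.0 and 95.2 CPM. At 24 h scaffold904.18 was also called lower than mock in NaCl, heat and mannitol. Those log2 fold changes were -1.75 ± 0.13, -1.03 ± 0.13 and -1.02 ± 0.13 (adjusted p = 5.32e-18, 4.93e-10 and 1.21e-09). The genes lowest at 72 h, scaffold782.5 and scaffold1028.6, had log2 fold changes of -1.67 ± 0.13 and -1.48 ± 0.14 at 24 h (adjusted p = 1.20e-16 and 9.73e-14).

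At 12 h of cold few genes passed both limits. Of the steady set, 2.07% were called lower and 1.37% higher. Of the late-cold genes 6 were called lower and 1 higher, against 11.9% and 12.8% of all tested genes. With the limit on fold change left aside, 44 were lower and 26 higher at 12 h by the adjusted p. The matching shares of all tested genes were not computed, so nothing further is read from these counts. The median log2 fold change was -0.09 with quartiles of -0.39 and 0.21, and 92 of 150 were below 0. The count of lower genes depended on the scaling, since library totals gave 20 in place of 6 and put the median of all tested genes at -0.35 in place of -0.04. It was 10 without replicate 1 of the mock libraries, and the count of higher genes was 3 without replicate 1 of cold and 2 by DESeq2. The 12 h cold libraries were all below the mock libraries in 91 late-cold genes and all above in 10, against 47.9% and 16.9% of all tested genes on the same unscaled CPM.

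The cold effect itself differed between 24 h and 12 h. In the test of cold minus mock at 24 h against cold minus mock at 12 h, 64 late-cold genes were lower at 24 h and 0 higher, against 12.0% and 12.8% of all tested genes, with a median difference of -0.91. For the higher direction 1 gene had an unadjusted p under 0.05 and DESeq2 called 0. Library totals gave 29 in place of 64, and there the median of all tested genes stood at 0.47. For scaffold782.5 the difference between the effects was -2.36 ± 0.19 on the log2 scale (adjusted p = 8.76e-17), and its log2 fold change at 12 h was 0.69 ± 0.13.

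Of the 6 genes called lower at 12 h, 5 were called lower at 24 h too. The exception was scaffold883.7, which also had the smallest p at 12 h. It held 14.4, 16.1 and 20.1 CPM in cold at 12 h, against 52.7, 58.9 and 63.4 CPM in mock leaves (log2 fold change -1.49 ± 0.13, adjusted p = 2.11e-15). At 24 h it held 22.1, 26.6 and 28.8 CPM in cold, against 41.9, 44.6 and 49.96 CPM in mock leaves (log2 fold change -0.93 ± 0.12, adjusted p = 2.85e-09). It was thus below mock in all libraries at both times, by less than the fold limit at 24 h, where the log2 fold change was -1.06 without replicate 3 of cold and -1.02 without replicate 1 of mock.

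The gene called higher at 12 h was scaffold79.32, with 9.26, 14.2 and 11.6 CPM in cold, against 4.55, 4.91 and 5.19 CPM in mock leaves (log2 fold change 1.56 ± 0.28, adjusted p = 2.49e-06). At 24 h it held 2.76, 3.13 and 5.47 CPM in cold, against 4.85, 7.17 and 4.67 CPM in mock leaves, and these libraries overlapped (log2 fold change -0.65 ± 0.31, adjusted p = 0.0698). Without replicate 3 of cold that fold change was -1.06 (adjusted p = 0.0132). Among the 150, 77 were called in neither direction at 12 h or 24 h of cold, against 62.9% of all tested genes.

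**Figure D2:**
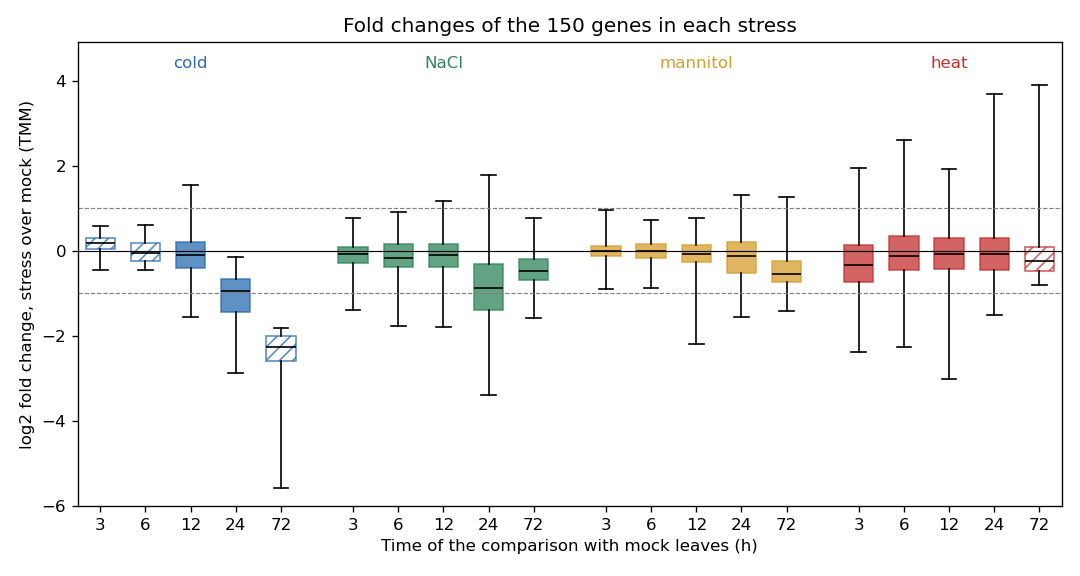
Log2 fold change of stress over mock leaves with TMM scaling (y axis) for the 150 late-cold genes at each time (x axis, h). Boxes span the quartiles with the median as a line, whiskers reach the lowest and highest gene, dashed lines mark the fold limit of 1 and hatched boxes are comparisons that the rule used. The cold box sits around 0 at 12 h and at a median of -0.95 at 24 h, and the NaCl box drops at 24 h to a median of -0.86.

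NaCl lowered nearly as many of the late-cold genes at 24 h as cold did. There 68 were called lower than mock and 1 higher, against 11.0% and 12.8% of all tested genes, with a median log2 fold change of -0.86 and quartiles of -1.39 and -0.31. In the steady set 3.16% were called lower. The NaCl libraries at 24 h were all below the mock libraries in 107 genes and all above in 15, against 23.1% and 42.1% of all tested genes. The cold and NaCl comparisons at 24 h share the same mock libraries, so their agreement is given only as values side by side. Of the 150, 36 were called lower in both (4.98% of all tested genes), 34 in cold without a call in NaCl (5.44%), 32 in NaCl without a call in cold (5.72%), and 1 was lower in cold and higher in NaCl. The remaining 47 were called in neither (63.8%).

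At the other times of NaCl few genes were called. At 3 h 4 were lower and 0 higher (2.73% and 5.14% of all tested genes), and at 6 h 9 were lower and 0 higher (3.39% and 2.42%). At 12 h 6 were lower and 2 higher (3.59% and 4.72%), and at 72 h 9 were lower and 0 higher (2.11% and 3.68%). At an unadjusted p under 0.05, 11, 21 and 8 were higher at 3, 6 and 72 h, and DESeq2 called 0 at each. By the adjusted p alone, 28, 43 and 93 were lower at these times and 10, 17 and 5 higher. The shares of all tested genes were not computed for either limit. In all, 72 late-cold genes were lower in NaCl at some time (15.3% of all tested genes), and 53 at 24 h and no other time (6.89%). The 72 h comparison shares its mock libraries with the rule, and with library totals it gave 1 lower and 1 higher. At 6 h library totals gave 6 lower and 1 higher. Without replicate 2 of NaCl, 7 were lower at 3 h and 4 higher at 12 h.

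The NaCl effect at 24 h differed from that at 12 h and from the level at 72 h. In the test of the NaCl effects, 48 genes were lower at 24 h than at 12 h and 0 higher, against 5.76% and 4.83% of all tested genes, with a median difference of -0.75. Within NaCl leaves, 38 genes were higher at 72 h than at 24 h and 0 lower, against 4.99% and 4.79%, with a median of 0.54. All NaCl libraries at 72 h were above all NaCl libraries at 24 h in 112 genes (17.9% of all tested genes). At an unadjusted p under 0.05, 3 genes had a higher effect at 24 h than at 12 h and 2 were lower at 72 h than at 24 h, and DESeq2 called 0 of either. The median log2 fold change against mock was -0.47 at 72 h of NaCl.

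For scaffold782.5 NaCl libraries held 53.6, 47.7 and 63.0 CPM at 24 h and 106, 110 and 81.0 CPM at 72 h, against 185, 193 and 173 CPM in mock libraries at 24 h and 195, 145 and 182 CPM at 72 h. The log2 fold change was -1.90 ± 0.14 at 24 h (adjusted p = 8.99e-19) and -1.03 ± 0.13 at 72 h (adjusted p = 8.68e-09). The 72 h value lay at the fold limit, and was -0.81 with library totals and -0.91 without replicate 3 of NaCl. The 72 h libraries of NaCl were above those of 24 h and below those of mock leaves. For scaffold904.18 NaCl libraries held 657, 664 and 596 CPM at 72 h, against 336, 291 and 338 CPM at 24 h, a difference of 1.06 ± 0.13 on the log2 scale (adjusted p = 1.12e-09) that was 0.99 with library totals or without replicate 2 of NaCl. For scaffold1028.6 the same difference was 1.5 ± 0.14 (adjusted p = 8.38e-13).

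In mannitol few of the late-cold genes passed both limits. At 24 h 13 were called lower and 3 higher, against 5.24% and 7.02% of all tested genes and 1.09% and 1.75% of the steady set. The median log2 fold change of the late-cold genes was -0.13. With the limit on fold change left aside, 52 were lower and 26 higher, counts for which the shares of all tested genes were not computed. All mannitol libraries were below all mock libraries at 24 h in 68 genes and above them in 30, against 26.1% and 25.1% of all tested genes. At 3 h and at 6 h 0 were called in either direction, against 0.975% lower and 1.7% higher at 3 h and 1.33% lower and 1.09% higher at 6 h. With an unadjusted p under 0.05 there were 17 lower and 16 higher at 3 h and 25 lower and 18 higher at 6 h, and DESeq2 called 0. At 12 h 2 were lower and 0 higher (2.47% and 3.42%), with 25 higher at an unadjusted p under 0.05 and 0 by DESeq2. By the adjusted p alone, 28 were lower and 13 higher at 12 h. The shares of all tested genes were not computed for the counts without the fold limit. Leaving out replicate 3 of mannitol, which stood near NaCl, gave 0 lower at 6 h and 2 at 12 h.

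At 72 h of mannitol 14 were lower and 2 higher (2.44% and 6.59%), with a median of -0.53, against mock libraries that the rule had used. Library totals gave 4 lower and 2 higher, and 28 were lower without replicate 1 of mannitol. In the comparison that leaves the mock out, mannitol at 72 h against mannitol at 24 h, 1 gene was lower and 0 higher (0.454% and 2.38% of all tested genes), with a median of -0.21. There 5 genes were higher at an unadjusted p under 0.05, and DESeq2 called 0.

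NaCl and mannitol at 24 h differed directly, a comparison added after the values had been seen. Of the late-cold genes 37 were lower in NaCl than in mannitol and 0 higher, against 4.66% and 4.84% of all tested genes, with a median of -0.73. For the higher direction 1 gene had an unadjusted p under 0.05 and DESeq2 called 0. All NaCl libraries were below all mannitol libraries in 114 genes and above them in 3 (14.4% and 39.8% of all tested genes). Library totals gave 22 lower. For scaffold782.5 the NaCl libraries, at 47.7 to 63.0 CPM, were below the mannitol libraries, at 157, 129 and 139 CPM (log2 difference -1.55 ± 0.14, adjusted p = 3.55e-14).

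Set directly against the other stresses at 24 h, cold was lower than mannitol in 68 late-cold genes and higher in 0 (12.1% and 11.4% of all tested genes, median -0.93). It was lower than heat in 67 and higher in 0 (14.3% and 15.4%, median -0.88). For the higher direction 3 genes had an unadjusted p under 0.05 in each of these, and DESeq2 called 0 in both. Against NaCl 27 (18%) were lower in cold and 13 (8.67%) higher, against 12.0% and 10% of all tested genes, with a median of -0.20. In the steady set 7.99% were lower and 1.12% higher. Calls in both directions were thus also found among all tested genes, and nothing further is read from them. In 61 of 150 the NaCl fold change was the lower of the pair, a count whose share of all tested genes was not computed. In 21 genes cold at 24 h was lower than mock, heat, mannitol and NaCl alike (2.71% of all tested genes).

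**Figure D3:**
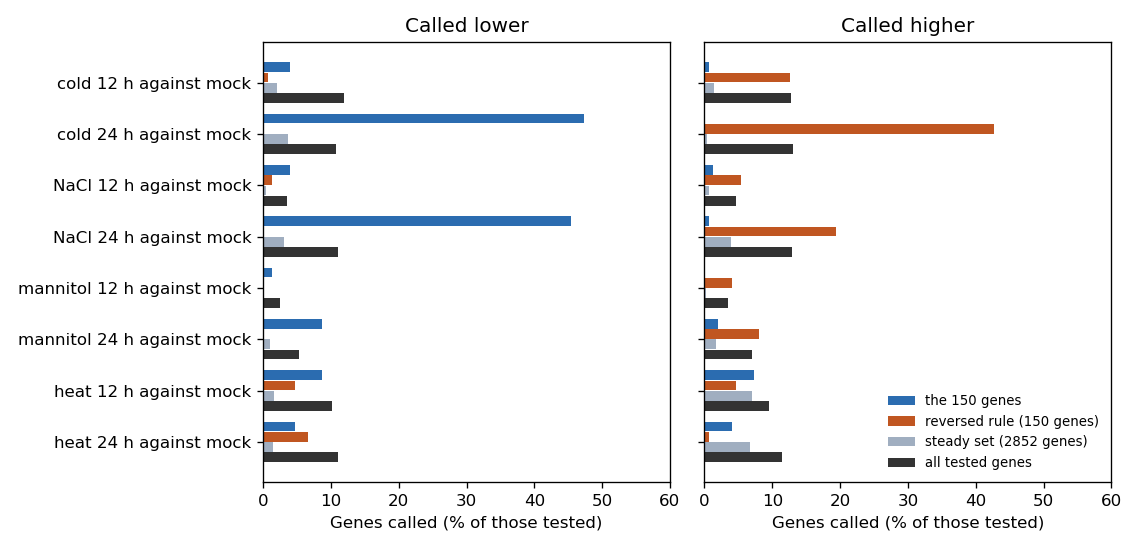
Share of genes called lower (left) and higher (right) than mock leaves (x axes, % of genes tested) in 8 comparisons that the rule did not use, for the 150 late-cold genes, the 150 genes of the reversed rule, the steady set and all tested genes. The late-cold bars reach 47.3% in cold and 45.3% in NaCl at 24 h and stay below 10% in the other comparisons shown.

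Cold and NaCl can be compared library by library in some of the late-cold genes. In scaffold1110.43 NaCl libraries at 24 h held 20.5, 22.0 and 27.8 CPM, against 35.1, 34.4 and 32.4 CPM in mock libraries, a log2 fold change of -0.69 ± 0.11 that did not reach the fold limit (adjusted p = 1.87e-07). Its cold libraries, at 6.04 to 7.63 CPM, were below all of these, and cold minus NaCl was -1.75 ± 0.13 on the log2 scale (adjusted p = 1.64e-17). The gene with the highest mean fold change over mannitol and NaCl, scaffold1014.22, moved in opposite directions. It held 96.2, 78.9 and 115 CPM in NaCl at 24 h and 46.1, 60.6 and 54.8 CPM in mannitol, against 26.7, 24.2 and 24.9 CPM in mock leaves. The log2 fold changes were 1.78 ± 0.16 and 1.11 ± 0.16 (adjusted p = 2.55e-15 and 3.75e-08).

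In cold at 24 h scaffold1014.22 held 7.76, 12.0 and 11.4 CPM, below every mock library (log2 fold change -1.40 ± 0.19, adjusted p = 3.82e-09). Cold and NaCl libraries thus stood on either side of mock, -3.18 ± 0.18 apart on the log2 scale (adjusted p = 1.81e-23). The gene with the lowest mean over mannitol and NaCl, scaffold156.14, was lower in NaCl at all 5 times, with log2 fold changes between -1.62 and -1.06, although with library totals that at 72 h was -0.84. At 24 h its NaCl libraries held 30.9, 26.9 and 27.5 CPM and its cold libraries 18.1, 22.6 and 25.4 CPM, against 81.8, 73.8 and 79.4 CPM in mock libraries. Its adjusted p was 1.51e-17 in NaCl and 2.86e-20 in cold. Heat lowered it as well, with log2 fold changes of -2.125, -2.272 and -1.778 at 3, 6 and 12 h (adjusted p = 7.30e-22, 2.76e-22 and 9.61e-19). It was also called lower in mannitol at 72 h (-1.125, adjusted p = 1.44e-10).

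**Figure D4:**
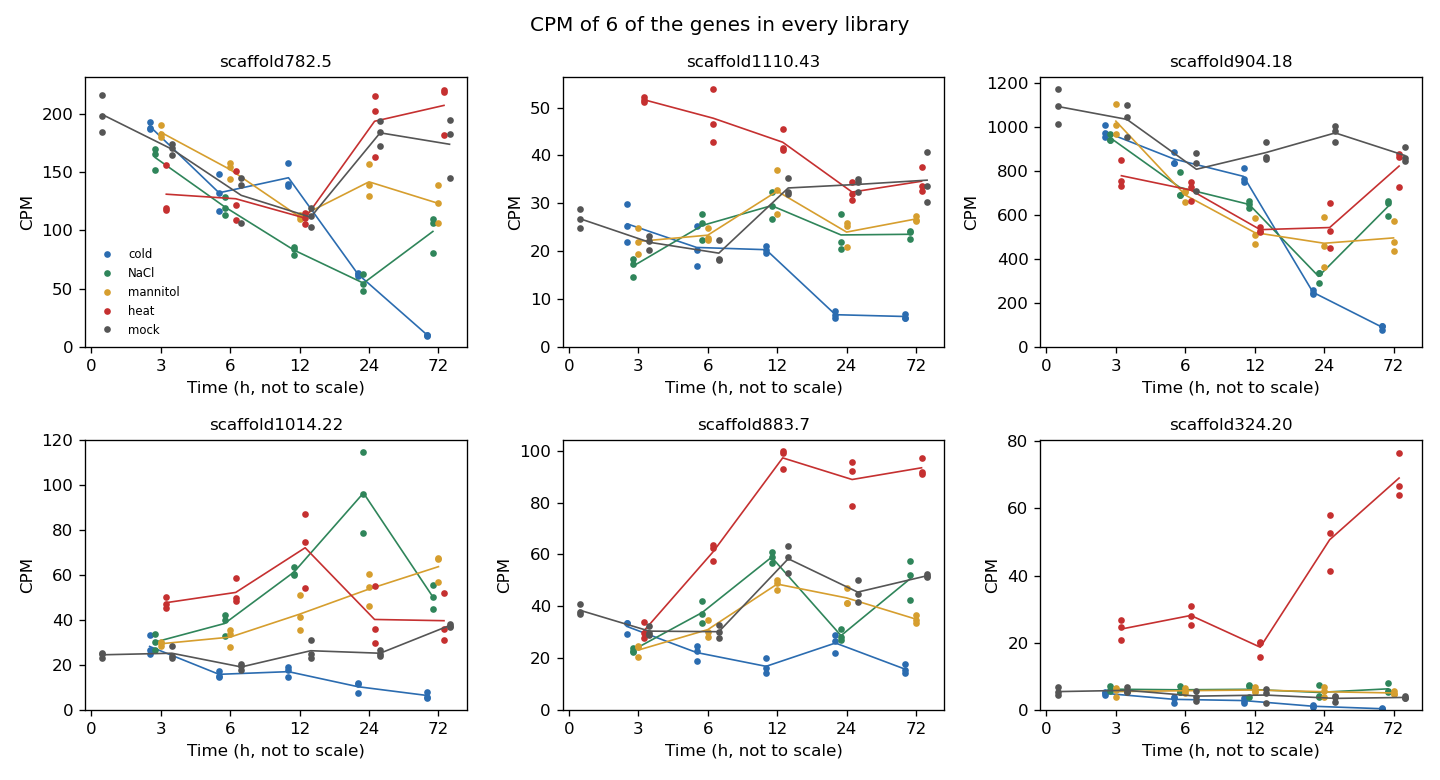
CPM in every library (y axes) against time (x axes, h, not to scale) for 6 of the late-cold genes, with lines through the means of 3 libraries per group. In scaffold782.5 and scaffold904.18 the cold and NaCl points are both below mock at 24 h and part at 72 h. The heat and mannitol points of scaffold904.18 are below mock at 24 h too. In scaffold1110.43 cold alone is at 6.04 to 7.63 CPM at 24 h, and in scaffold1014.22 NaCl rises to 78.9 to 115 CPM while cold is below mock.

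In heat late-cold genes were called in both directions, in shares near or below those of all tested genes except at 3 h. Beside the steady set, however, they were called lower more often at all 4 times. At 3 h 27 were lower and 8 higher (11.5% and 13.0% of all tested genes), and at 6 h 14 were lower and 17 higher (13.0% and 11.8%). At 12 h 13 were lower and 11 higher (10.1% and 9.58%), and at 24 h 7 were lower and 6 higher (11.0% and 11.5%). Library totals moved the split towards higher calls, giving 10 lower and 20 higher at 6 h, 9 lower and 13 higher at 12 h and 3 lower with 9 higher at 24 h. Without replicate 1 of heat, 12 were lower at 24 h. Median log2 fold changes were -0.33, -0.13, -0.06 and -0.07 in that order. The steady set was called lower in 3.61%, 2.03%, 1.61% and 1.47% at these times, against 18%, 9.33%, 8.67% and 4.67% of the late-cold genes. It was called higher in 9.47%, 10.9%, 6.98% and 6.66%, against 5.33%, 11.3%, 7.33% and 4% of the late-cold genes. Over the 4 times, 38 late-cold genes were lower and 19 higher at some time, and 0 were called in both directions. The shares of all tested genes were 22.5%, 23.5% and 0.796%, and library totals gave 27 late-cold genes lower and 24 higher. At 72 h, where the rule kept out genes lower in heat, 0 were lower and 4 higher (13.4% and 11.1% of all tested genes), from which nothing is read.

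The gene with the highest mean fold change in heat was scaffold324.20. It held 41.3, 58.1 and 52.7 CPM in heat at 24 h, against 3.88, 4.14 and 2.41 CPM in mock leaves (log2 fold change 3.68 ± 0.23, adjusted p = 2.73e-21). In cold at 24 h it held 0.862, 1.39 and 1.16 CPM, below every mock library (log2 fold change -1.70 ± 0.39, adjusted p = 1.56e-04), and 2, 4 and 1 counts were left at 72 h of cold. High and low temperature thus placed this gene on opposite sides of mock, -5.38 ± 0.28 apart at 24 h (adjusted p = 4.75e-25). The last gene inside the rule's limit, scaffold575.103, had the same signs, at 2.04 ± 0.23 in heat and -1.70 ± 0.34 in cold at 24 h (adjusted p = 3.92e-11 and 2.50e-05).

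The gene with the lowest mean fold change in heat, scaffold1580.4, was lowered and came back. It held 46.7, 43.4 and 44.6 CPM in heat at 12 h, against 315, 344 and 336 CPM in mock leaves (log2 fold change -3.0 ± 0.22, adjusted p = 1.42e-18). At 24 h it held 399, 198 and 360 CPM in heat, against 258, 236 and 224 CPM in mock leaves, and the libraries overlapped (log2 fold change 0.22 ± 0.19, adjusted p = 0.331). In NaCl the same gene held 398, 345 and 357 CPM at 72 h, against 65.5, 54.5 and 77.7 CPM at 24 h, a difference of 2.54 ± 0.21 (adjusted p = 1.44e-15).

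The 71 late-cold genes called lower at 24 h of cold and the 79 not called had median log2 fold changes of -1.01 and -0.82 in NaCl at 24 h. In mannitol at 24 h the medians were -0.23 and -0.02, and in heat at 24 h they were -0.16 and -0.02. At 12 h of cold they were -0.30 and -0.02, and their medians in cold at 72 h on the log2(CPM + 1) scale were -1.84 and -1.56. No difference between these groups was tested, since they were split on the 24 h result. Across all 16 comparisons with mock that the rule did not use, 29 late-cold genes were called in none, against 36.3% of all tested genes. In none of heat, mannitol and NaCl 49 were called, against 44.9%. Both counts include mannitol and NaCl at 72 h, whose mock libraries the rule had used.

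The rule was written on library totals and the tests used TMM, which differ most, among the 20 comparisons with mock, at 72 h of cold, where the median of all tested genes was 0.45 with totals and -0.00 with TMM. With TMM-scaled CPM in the rule, 94 of the 150 still met every limit. Counted among those, a count added after the data had been seen, 41 (43.6%) were called lower in cold at 24 h and 41 (43.6%) in NaCl at 24 h, close to 47.3% and 45.3% of all 150.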

How the data were processed

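Leaf RNA of 78 pools was sequenced from strand-specific libraries. Per the paper's methods and the labels, the authors trimmed the reads with cutadapt (1.9.1 in the submitters' processing notes), checked them with FastQC 0.11.5, aligned them with HISAT2 to the CM334 genome and counted them per gene with featureCounts 1.5.2. Whether strand was used in counting is not given in the sources used here. The deposited values are whole-number counts for 35884 genes, without normalization, and 28125 genes had a count in some library. How the counting treated reads from near-identical genes is not given either, so paralogs are uncertain. The counts carry variation between pools and libraries besides counting error, and no molecular identifiers are described.

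Groups and replicates came from the labels. CPM was the count divided by the library total. The counts were fitted in R 4.3.3 with edgeR 4.0.16 (filterByExpr, TMM, glmQLFit and glmQLFTest, 26 groups, no block, 52 residual degrees of freedom, common biological coefficient of variation of 11.4%) and limma 3.58.1. P-values were adjusted by Benjamini-Hochberg within each comparison, and the SE is the log2 fold change divided by the root of its F statistic. The test was checked on simulated data. Alternatives were DESeq2 1.42.0, library totals, RLE factors, no filter, the replicate number as a block, each replicate left out in turn and, for the rule, a pseudocount of 0.5 in place of 1.

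Genes named are the 2 lowest in cold at 72 h, the 2 with the smallest p in each direction in cold at 24 h, 1 in each direction at 12 h, the lowest and highest mean over mannitol with NaCl and over heat, and the genes at the rule's edge. No gene was called higher at 24 h. The consecutive pairs were named after their values had been seen. The genes and the comparisons were chosen with earlier results of these data known. The comparison of NaCl with mannitol and the test of the NaCl effects were added later.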

Additional observations from a re-analysis of the deposited data

Results flagged for a closer look

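Effects of a stress differed between times or between stresses in 6 direct tests with edgeR's quasi-likelihood test (Benjamini-Hochberg adjustment, fold limit of 1 on the log2 scale). The cold effect was lower at 24 h than at 12 h in 64 of the 150 late-cold genes (12.0% of all tested genes). The NaCl effect was lower at 24 h than at 12 h in 48 (5.76%). At 24 h, cold was lower than heat in 67 (14.3% of all tested genes) and lower than mannitol in 68 (12.1%). Cold was lower than NaCl in 27 and higher in 13, and NaCl was lower than mannitol in 37. No difference between samples of a group was looked at in this way, since each group holds 3 libraries.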

How the results depend on the processing

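Of 26 counts of called late-cold genes, the replicate number as a block moved none by more than 1.5 times, and the count lower in cold at 24 h was 72 with the block and 71 without. Same-numbered libraries correlated at 0.03, -0.02 and -0.00 for cold and mock at 24 h and at 0.29, 0.09 and 0.08 at 12 h, and in no pair of groups were all 3 over 0.1, so the numbers were not taken as pairs. Library totals gave 20 lower in cold at 12 h (6 with TMM), 29 lower for the cold effect at 24 h against 12 h (64), 22 lower in NaCl against mannitol at 24 h (37), 0 lower in mannitol at 72 h against 24 h (1) and 4 higher in NaCl at any time (2). With library totals 61 were lower in cold at 24 h (71 with TMM), and 53 were lower and 3 higher in NaCl at 24 h (68 and 1 with TMM). The cause was not tested. DESeq2 and RLE factors each gave 2 higher in cold at 12 h (1 in the main fit) and 1 higher in NaCl at any time, and the fit with no filter gave 1 there.

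With each replicate left out in turn, the count lower in cold at 24 h was 72 to 78, lower in cold at 12 h 6 to 10, higher in cold at 12 h 1 to 3 (3 without replicate 1 of cold), lower for the cold effect at 24 h against 12 h 59 to 73, lower in mannitol at 72 h against 24 h 0 to 1 (0 without replicate 1 of mannitol), and higher in NaCl at any time 1 to 4 (4 without replicate 2 of NaCl). NaCl against mock at 24 h gave 66 to 73 lower. For 35 fold changes of named genes, 376 alternative values were run, in most cases added after the data had been seen, and all kept their direction, with 7 losing and 3 gaining a call. Leaving out a replicate at 72 h kept 143 to 150 genes within the rule, and a pseudocount of 0.5 kept 142. Depth limits genes near 2 CPM in mock leaves, where cold at 72 h left few counts.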
